A study of Homo sapiens with 3 samples.

Results

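The peaks described here are weaker CBFB peaks that lay inside genes and did not meet a RUNX2 peak. They were chosen by measured values. A CBFB peak was included when its score was under 278, when it shared no base with any RUNX2 peak, and when its midpoint lay over 5 kb from every annotated transcription start site (TSS) and inside an annotated gene on chromosomes 1 to 22 or X. Of the 27246 CBFB peaks, 5939 met the rule, or 21.8%. The first step left out 56 peaks on other chromosomes or contigs. Of the 27190 that remained, 17997 shared no base with a RUNX2 peak, 17141 of these were under the score limit, 9198 of these lay over 5 kb from every TSS, and 5939 of these lay inside a gene.

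Chromatin immunoprecipitation followed by sequencing (ChIP-seq) was performed for RUNX2, with a custom antibody, and for CBFB, with an antibody from Bethyl, in SAOS2 cells, and the study sought genes that RUNX2 acts on through its binding sites. SAOS2 is a human osteosarcoma cell line that lacks p53. All cells were untreated and grown in DMEM with fetal bovine serum, and the results hold for 1 cell line. Only the antibody is given as a difference between the ChIP libraries. Any difference in preparation, sequencing run or depth cannot be told apart from it. The series held 3 samples, of which the input DNA was not analysed here, and each antibody had 1 library. No result therefore has a replicate check, no p-value was computed, and peaks were not treated as replicates. Intervals in the text are exact 95% intervals of a share, or Newcombe 95% intervals of a difference between shares, and cover counting error only. The lists hold no read counts, so the depth is unknown.

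CBFB, the core binding factor beta subunit, does not bind DNA itself. It joins the runt domain of RUNX1, RUNX2 or RUNX3 and strengthens their binding to a short site whose core reads TGTGGT, or ACCACA on the other strand. RUNX2 is known as the main RUNX protein of bone-forming cells and RUNX1 as that of blood cells, and the core does not tell them apart. Introns of active genes are common places for enhancers, the distal elements to which such factors bind.

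The sequences at some of these peaks show the site that the results turn on. The coordinates are GRCh37 (hg19), the letters are those of the plus strand of the reference, and capitals mark each copy of the RUNX core on either strand. The first set holds the members of the 5 highest-scoring peaks that had a core within 100 bp of the midpoint, with 25 bases to either side of it.
ENSG00000285679, score 277.17, chrX:8160467-8160522, plus strand: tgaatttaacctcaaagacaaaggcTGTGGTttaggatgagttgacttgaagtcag
ZMIZ1, score 277.03, intron 2, chr10:80897686-80897741, plus strand: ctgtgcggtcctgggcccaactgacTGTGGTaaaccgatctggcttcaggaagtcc

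ENSG00000285679 is a long non-coding RNA (lncRNA) gene, and ZMIZ1 encodes a transcriptional coactivator. The other 3 of the 5 highest-scoring peaks held no core in that window. They lay in DEPTOR, an inhibitor of mTOR (score 277.64), in PDP1, a phosphatase that activates pyruvate dehydrogenase (277.56), and in GPC3, a cell-surface glypican (277.51).

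The second set shows the longer form TGTGGTT, or AACCACA, close to the midpoint. The 5 highest-scoring peaks with it within 25 bp of the midpoint are given.
RPL34-DT, score 272.85, exon of a lncRNA gene, chr4:109477031-109477086, plus strand: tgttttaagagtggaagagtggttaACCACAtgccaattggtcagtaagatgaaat
ENSG00000259536, score 262.96, lncRNA gene, chr15:40785756-40785811, plus strand: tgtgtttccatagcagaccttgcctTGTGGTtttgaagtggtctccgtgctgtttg
UCK2, score 262.38, intron 1, chr1:165820480-165820535, plus strand: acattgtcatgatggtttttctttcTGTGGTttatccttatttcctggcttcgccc
N4BP1, score 258.44, intron 1, chr16:48624420-48624475, plus strand: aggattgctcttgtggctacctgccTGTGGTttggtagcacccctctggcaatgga
COL5A2, score 251.8, intron, chr2:190064726-190064781, plus strand: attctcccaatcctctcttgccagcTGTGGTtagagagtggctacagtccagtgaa

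The core was single in each of these 5 windows. The peak in COL5A2, which encodes a chain of type V collagen of bone and skin matrix, lay 26.5 kb from the nearest RUNX2 peak. The peak in UCK2, a uridine and cytidine kinase, lay 1.88 kb from it. The core of the peak in COL5A2 was centred 11.5 bp from the midpoint.

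The third set shows cores in peaks whose midpoint lay in a coding exon, taken from the 5 highest-scoring peaks of that kind.
COG3, score 273.07, chr13:46083865-46083920, plus strand: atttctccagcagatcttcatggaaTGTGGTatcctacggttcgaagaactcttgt
NDUFC1, score 238.04, chr4:140188056-140188111, plus strand: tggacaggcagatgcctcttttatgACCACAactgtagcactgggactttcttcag
ABCA1, score 200.37, chr9:107665818-107665873, plus strand: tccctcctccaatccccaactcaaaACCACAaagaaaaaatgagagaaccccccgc

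COG3 encodes a subunit of a Golgi tethering complex, NDUFC1 a subunit of respiratory complex I, and ABCA1 a transporter that exports cholesterol. The other 2 peaks of this set, in TRAF3IP2, an adaptor of interleukin-17 signalling, and in ZMIZ1 (score 207.08), held no core within 100 bp of the midpoint. Each peak is named by a gene that holds its midpoint, and the coding exon may belong to another gene there. The peak named by NDUFC1 (chr4:140187499-140188662) reached past the end of that gene at chr4:140188034.

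The last set shows the windows of 201 bases, centred on the midpoint, of the 2 peaks with the most copies of the core.
MAG, score 57.97, intron 4, chr19:35789491-35789691, plus strand: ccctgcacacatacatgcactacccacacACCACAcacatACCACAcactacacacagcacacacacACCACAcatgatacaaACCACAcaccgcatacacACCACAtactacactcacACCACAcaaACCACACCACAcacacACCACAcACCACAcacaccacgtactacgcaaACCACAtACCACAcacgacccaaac
LINC00668, score 216.82, exon of a lncRNA gene, chr18:6920345-6920545, plus strand: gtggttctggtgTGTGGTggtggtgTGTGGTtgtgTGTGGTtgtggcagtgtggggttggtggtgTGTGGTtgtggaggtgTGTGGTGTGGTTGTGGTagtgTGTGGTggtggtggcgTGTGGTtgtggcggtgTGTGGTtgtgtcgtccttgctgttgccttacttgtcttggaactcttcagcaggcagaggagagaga

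The window in MAG, a gene of myelin, held 12 copies and the window in LINC00668 held 10, where copies that share a base are counted separately. In both, the copies lay in short repeats and not as single sites. Such windows were rare, since 28 of the 5939 peaks, or 0.471%, held 4 or more copies.

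The score, the overlap with RUNX2 and the distance from a TSS are what the peaks were chosen by, so these values are given only as a description. The score ran from 50 to 277.64, with a median of 86.0 and quartiles of 64.1 and 128. The width had a median of 1040 bp and quartiles of 916 and 1240 bp, and it ran from 471 to 11657 bp. The midpoints lay between 5004 and 489283 bp from the nearest TSS, with a median of 15943 bp. Just inside the score limit lay peaks of 277.64, 277.56 and 277.51, and just outside it CBFB-only peaks inside genes of 278.15, 278.67 and 278.7. Just inside the TSS limit lay peaks at 5004, 5006 and 5007 bp, and just outside it peaks at 5000, 4997 and 4991 bp. The smallest gaps to a RUNX2 peak were 8, 48 and 64 bp.

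The 4 other classes of CBFB peaks served for comparison. The closest was the class of 1537 peaks at the same place, inside genes and over 5 kb from every TSS, and under the same score limit, that shared at least 1 bp with a RUNX2 peak, called shared peaks below. Their median score was 165 and their median width 1139 bp, so within the common limit they scored higher and were wider. The others were 7943 CBFB-only peaks under the limit and within 5 kb of a TSS, 3259 CBFB-only peaks under the limit, over 5 kb from every TSS and outside genes, and 268 CBFB-only peaks inside genes at or over the limit. For counts per gene and per chromosome, shared peaks of every score in gene bodies were taken. For distances to a shared peak, every CBFB peak that overlapped a RUNX2 peak was taken, of any score and at any place.

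The RUNX core was the most frequent motif of the panel in these peaks. It was found within 100 bp of the midpoint in 3042 of the 5939 peaks, or 51.2% (49.9 to 52.5). Among all 5721900 adjoining windows of 201 bp in gene bodies over 5 kb from a TSS and outside every peak, here called tiles, the share was 13.5%. In windows of the same length 2 kb to either side of the peaks that touched no peak, here called flanks, it was 13.8% (13.2 to 14.5, n = 11172). The share in the peaks was thus 3.80 times that of the tiles and 3.71 times that of the flanks. It was also above the 41.6% of all 27190 CBFB peaks on these chromosomes, a set that includes the peaks themselves. The longer form TGTGGTT, which contains the core, was found in 29.5% (28.3 to 30.6), against 3.87% of tiles and 3.72% of flanks, a ratio of 7.91 to the flanks. When the whole peak was searched, 87.4% (86.5 to 88.2) of the peaks held at least 1 core. The median peak was 1040 bp wide, and no background of like length was computed. This share therefore cannot be set against those of the 201-bp tiles and flanks.

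The other motifs of the panel stood much closer to their background. Both strands were searched for each motif. AP-1 (TGANTCA), the site of FOS and JUN proteins, was found in 14.2% (13.3 to 15.1) of the peaks, against 6.34% of tiles and 6.40% of flanks, a ratio of 2.21 to the flanks. TEAD (GGAATG), the site through which YAP and TAZ reach DNA, was found in 16.0% (15.1 to 17), against 10.7% of tiles and 10.8% of flanks. NFI (TTGGCA) was found in 13.2% (12.3 to 14.1), against 10.2% of tiles and 10.4% of flanks. The ratio to the flanks was 1.54 for ETS (CCGGAA), which only 1.99% of the peaks held, 1.42 for the E-box (CAGCTG) and 1.33 for the GC box (GGGCGG). For FOX (TGTTTAC) at 1.20, the homeobox site (TAATTA) at 1.08, C/EBP (TTGCNNNAA) at 1.03 and CTCF (AGGNGGC) at 0.912, the intervals of peaks and flanks overlapped. The CTCF letters were found in 10.6% (9.85 to 11.4) of the peaks and in 11.6% (11.1 to 12.3) of the flanks.

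**Figure D1:**
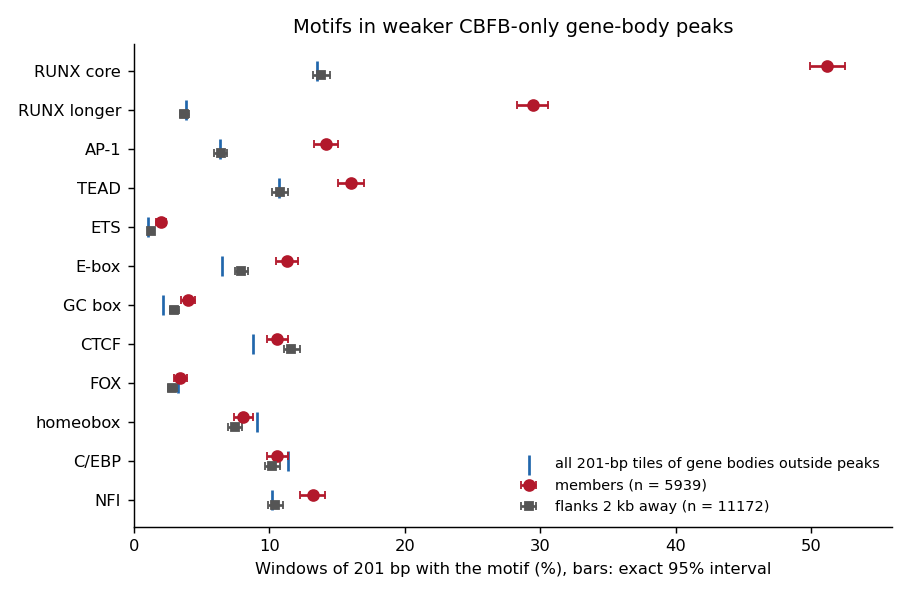
Share of windows of 201 bp (x axis, percent) that held each of 12 motifs (y axis) in the 5939 peaks (red circles), in flanks 2 kb away (grey squares) and in all tiles of gene bodies outside peaks (blue ticks), with exact 95% intervals as bars. The RUNX core lies at 51.2% in the peaks and near 13.5% in both backgrounds, and the other motifs lie at most 16.0% in the peaks apart from the longer RUNX form.

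A search that named no motif in advance put RUNX letters first. Of the 1408 sequences of 6 bases that at least 5% of the peaks held, counted together with their complements, GTGGTT had the highest ratio to the flanks at 4.36, with shares of 40.2% and 9.23%. TGTGGT was next at 3.71, followed by TGCGGT at 3.41, GTGGTC at 3.30 and TTGTGG at 3.13. Apart from TGCGGT, which differs from the core in 1 base, each of them shares 5 adjoining letters with the core. Letters of AP-1 first came at rank 15, as GAGTCA, with a ratio of 1.92. The order of forms was not the same as in the shared peaks. TGCGGT was found in 6.35% of the peaks and in 9.76% of the shared peaks, a difference of -3.41 percentage points (-5.10 to -1.88), while TGGTTT was higher by 4.4 percentage points (1.75 to 6.96). These sequences were picked after their values were seen.

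The cores gathered close to the midpoint, but not evenly around it. In bins of 50 bp, the share of peaks with a core was highest 50 to 100 bp below the midpoint, on the side of the lower coordinate, at 21.9%. It was 19.2% from 50 bp below up to the midpoint, 12.4% in the first 50 bp above it and 9.04% in the next 50 bp. Among the 4531 peaks with a core within 250 bp, the nearest core lay below the midpoint in 66.3% (64.9 to 67.7), with a median position of -35.5 bp. The share was 65.6% (63.6 to 67.5) for genes on the plus strand and 67.2% (65.2 to 69.2) for genes on the minus strand, with intervals that overlapped. The same side led in the shared peaks at 68.0%, in all CBFB peaks at 64.0% and in all RUNX2 peaks at 69.1%, so it was shared by both lists. With the peaks divided by width into 5 groups of equal size, it did not lead in the widest group, at 46.2% (42.5 to 49.8). When the window was centred 60 bp below the midpoint, a setting chosen after this was seen, the share of peaks with a core was 56.5% (55.2 to 57.8) in place of 51.2%.

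**Figure D2:**
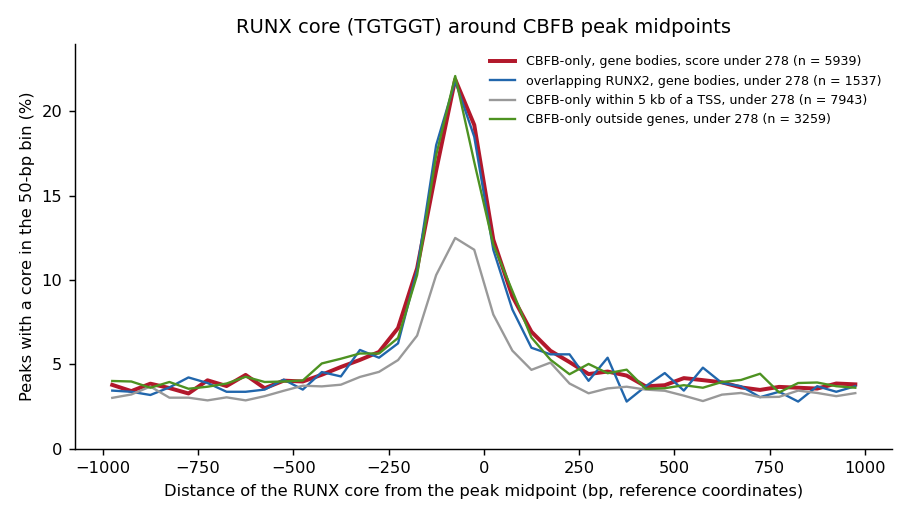
Share of peaks with a RUNX core (y axis, percent) in bins of 50 bp around the peak midpoint (x axis, bp in reference coordinates), for these peaks (red) and for 3 other classes of CBFB peaks under the same score limit. The line of these peaks reaches 21.9% just below the midpoint and falls to near 4% at the edges, and it runs with the lines of the shared peaks and of the peaks outside genes, while the line of the peaks near a TSS stays lower.

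The share of peaks with a core was close to that of the other weaker classes far from a TSS and above that of the peaks near a TSS. The shared peaks had it in 50.1%, so the peaks without RUNX2 exceeded them by 1.12 percentage points, with an interval of -1.68 to 3.92 that includes 0. They were the higher of the pair on 13 of 23 chromosomes. The difference was 2.99 points (0.291 to 5.69) when CBFB peaks within 1 kb of a RUNX2 peak were moved to the shared class. Both classes changed in that setting, and the core share of the peaks without RUNX2 was then 51.7%. With the window centred 60 bp below the midpoint, the difference was -0.503 points (-3.26 to 2.29). The peaks outside genes had it in 48.5%, a difference of 2.77 points (0.634 to 4.90), with the gene-body peaks higher on 16 of 23 chromosomes. This difference is small, and its interval included 0 with the longer motif, with a score limit of 200 or without chromosome 1. The peaks near a TSS had it in 32.3%, a difference of 18.9 points (17.3 to 20.5), and the gene-body peaks were higher on 23 of 23 chromosomes. The CBFB-only peaks in genes at or over the limit had it in 44%, a difference of 7.19 points (1.07 to 13.1).

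The E-box was less frequent than in the shared peaks, while for AP-1 this depended on the shared peaks taken. AP-1 was found in 14.2% against 17.6% of the shared peaks under the limit, a difference of -3.47 points (-5.64 to -1.43), and was lower on 16 of 23 chromosomes. The E-box was found in 11.3% against 14.6%, a difference of -3.36 points (-5.37 to -1.48), and was lower on 17 of 23 chromosomes. Against the shared peaks of all scores in gene bodies, the difference in AP-1 was -0.884 points (-2.43 to 0.625), which includes 0, and that in the E-box was -3.10 points (-4.59 to -1.66). The shared peaks under the limit had higher scores than the peaks described here, and the part of the score in these differences was not tested. Against the peaks near a TSS, the GC box differed most, at 3.97% against 23.5%, a difference of -19.5 points (-20.5 to -18.4). ETS was also lower than near a TSS, at 1.99% against 8.02%, and AP-1 was higher, by 5.08 points (4.0 to 6.18).

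Base composition differed most from that of the peaks near a TSS. The windows of these peaks had a mean GC content of 45.4% (SD 8.28 over peaks), against 42.4% in their flanks, 40.0% in the tiles and 54.8% in the peaks near a TSS. The other classes lay closer, at 45.7% in the shared peaks, 46.2% outside genes and 47.7% in the CBFB-only peaks at or over the limit. The core stayed above the tiles of like GC content. In windows of up to 40.8% GC, 54.1% of the peaks and 11.6% of the tiles held it, a ratio of 4.68. In the middle range up to 48.8% GC, the shares were 54.8% and 15.2%, a ratio of 3.62. Above it they were 44.4% and 17.6%, a ratio of 2.52, the lowest of the 3.

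Within the peaks, the core did not follow the score but did follow the width. With the peaks divided into 5 groups of equal size, the share with a core from the lowest to the highest score group was 51.1%, 50.4%, 49.9%, 52.6% and 52.1%, with intervals that overlapped. From the narrowest to the widest group it was 53.7%, 59.3%, 58.2%, 54.3% and 30.6%. The widest group, from 1344 bp on, had an interval of 27.9 to 33.3 and thus stood apart. Of the 81 peaks of 3 kb or more, 30.9% (21.1 to 42.1) had a core in the central window. The window was the same length in all peaks, so that it covered a smaller part of a wide peak. AP-1 was also lowest in the widest group, at 9.43% (7.83 to 11.2).

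Most peaks with a core had only 1. Of the 5939 peaks, 2321 held 1 copy, 599 held 2 copies, 94 held 3 copies and 2897, or 48.8%, held none. Core and AP-1 were found together in 452 peaks, or 7.61%, the core without AP-1 in 2590, AP-1 without the core in 389, and neither in 2508, or 42.2%. AP-1 was present in 14.9% of the peaks with a core and in 13.4% of those without, a difference of 1.43 points (-0.344 to 3.20) that includes 0. CTCF and the GC box were less frequent beside a core, by -4.26 points (-5.84 to -2.69) and -2.55 points (-3.57 to -1.56). None of the 12 motifs was found in 1035 peaks, or 17.4%. Their median score was 84.1, close to the 86.0 of all.

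The strand of the core was read against the gene. In the 2177 peaks with a lone core and a host gene of 1 strand, TGTGGT lay on the sense strand in 59.8% (57.7 to 61.8). The background was also above an even split, at 54.9% in the tiles and 55.9% in the flanks. The peaks exceeded the tiles by 4.82 points (2.74 to 6.86) and the flanks by 3.87 points (0.509 to 7.23). The shared peaks had 57.7%, and the difference of 2.06 points (-2.45 to 6.65) includes 0.

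The peaks lay in introns nearly as the bases open to them did. A base was open, or eligible, when it lay in a gene and over 5 kb from every TSS. The midpoint was in an exon in 236 peaks, or 3.97% (3.49 to 4.50), against 4.10% of eligible bases, and in coding sequence in 56, or 0.943%, against 0.997%. First introns were the exception. Of the 3970 peaks in an intron of a canonical protein-coding transcript, 1236, or 31.1% (29.7 to 32.6), lay in the first one, which held 22.9% of the eligible intron bases. The share in the shared peaks was 28.2%, and the difference of 2.92 points (-0.286 to 6.0) includes 0. In the CBFB-only peaks at or over the limit it was 38.1%, a difference of -6.99 points (-14.4 to -0.0734). The core was found in 48.8% of the peaks in first introns, in 51.6% of those in later introns and in 56.8% (50.2 to 63.2) of those in exons. A protein-coding gene held 78% of the peaks, and 21.3% lay in a lncRNA gene alone, where the share with a core was 51.7%. For the peaks in protein-coding genes, the gene was divided into 3 equal lengths. In order from first to last, these held 36.1%, 33.5% and 30.4% of the peaks. The shares of eligible bases in these lengths and in these types of host gene were not computed. Whether the peaks favoured a part of the gene or a type of host therefore cannot be read.

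Many genes held 1 peak and few held many. A gene had room when it held at least 1 eligible base. Of 23667 annotated genes with room, 3512 held a peak, or 14.8%, and of 13858 protein-coding genes with room, 2465 did, or 17.8%. Of the latter, 1467 held 1 peak, 178 held 5 or more and 25 held 10 or more. Longer genes offer more room, so counts are set against the eligible length. Over all protein-coding genes the density was 0.551 peaks per 100 kb. Of the 2465 host genes, 942, or 38.2%, also held a shared peak of any score in their body, and 1523, or 61.8%, did not.

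Genes with many peaks were long. AUTS2, a gene of neural development, held 19 (1.81 per 100 kb, 9 with a core) and the lncRNA gene CASC15 held 16 (2.11 per 100 kb, 7 with a core). RUNX1 (chr21:36160098-37376965), the RUNX gene of blood cells, held 15 peaks, of which 9 had a core, beside 17 shared peaks of any score in its body. Its scores ran from 53.41 to 172.25. Its peaks between chr21:36604877 and chr21:37305366 lay outside the introns of its canonical transcript, in a part of the gene covered only by other annotated transcripts. TIAM2, an exchange factor for RAC1, also held 15, at 5.35 per 100 kb, of which 5 had a core. CAMTA1, a calmodulin-binding transcription activator, the lncRNA gene ENSG00000237356 and the lncRNA gene PVT1 held 14 each, of which 7, 11 and 3 had a core.

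RUNX2 itself (chr6:45295894-45632086), the gene of the other protein of the study, held, beside 6 shared peaks of any score, 11 of these peaks (3.94 per 100 kb). Their scores ran from 50.79 to 141.24, with a median of 61.78, below the median of 86.0 of all these peaks. Of the 11, 5 had a core. The peak of the score 141.24 (chr6:45600761-45602569) lay 5.48 kb from the nearest RUNX2 peak and held none, and the peak of the score 101.15 (chr6:45421070-45422917), in intron 5, held 1. The window of 1 Mb that holds much of RUNX2, CLIC5 and SUPT3H had 18 peaks, the second highest count of all windows, against a median of 2.00 over 1822 occupied windows.

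**Figure D3:**
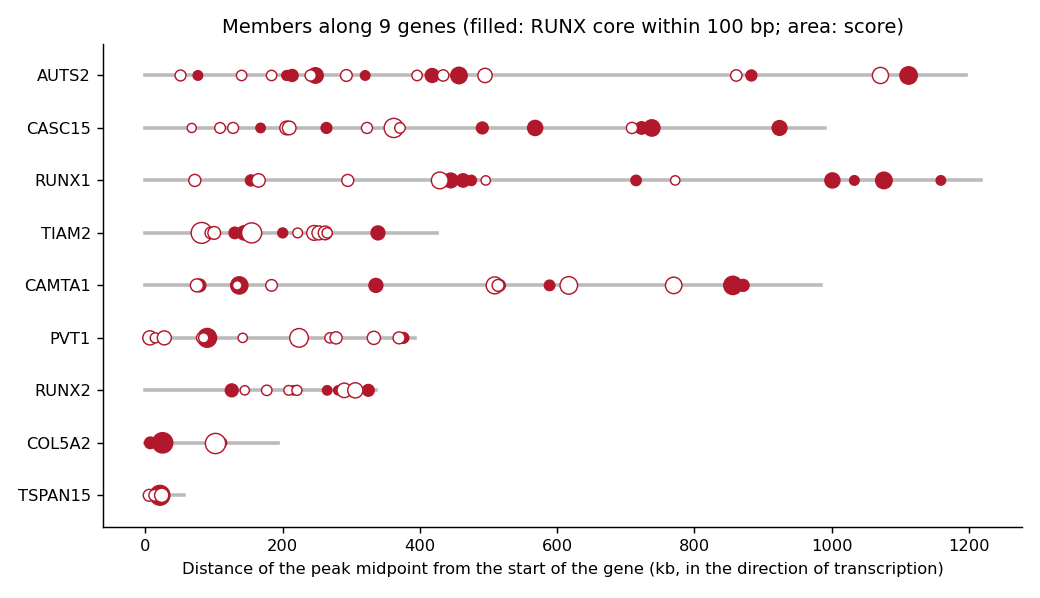
Position of the peaks along 9 genes (y axis), as the distance of the midpoint from the start of the gene in the direction of transcription (x axis, kb). Circles are peaks, with areas that grow with the score, filled where a RUNX core lay within 100 bp of the midpoint and empty where not, and grey lines are the genes. AUTS2, CASC15, RUNX1 and CAMTA1 carry 14 to 19 peaks spread over long bodies, while TSPAN15 carries 5 close to its start.

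Relative to the room they offered, shorter genes came first, which a lower limit on the count and a division by length favour. Among protein-coding genes with at least 5 peaks, TSPAN15 (chr10:71211221-71267422), a tetraspanin that partners the protease ADAM10, had 5 peaks in 24.3 eligible kb, or 20.6 per 100 kb. All 5 lay in intron 1, with scores of 85.78, 81.85, 79.61, 240.93 and 123.92, and 2 of them had a core. SPEN, a transcriptional repressor, followed at 11.4 per 100 kb, with scores from 55.9 to 177.34, and 0 of its 5 peaks had a core. UCK2, at 8.70 per 100 kb, was the opposite case: 5 of its 5 peaks had one, with scores of 117.19, 64.13, 262.38, 87.91 and 120.58. IGF2R, the receptor that clears IGF2, had 9.45 per 100 kb, IL1R1, an interleukin-1 receptor, 8.24, BCOR, a corepressor of BCL6, 7.78, RXRA, a nuclear receptor, 5.88, and RASA3, a RAS GTPase-activating protein, 5.56.

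The peaks were then counted over 12 lists of genes, set against the 17.8% and the 0.551 per 100 kb of all protein-coding genes with room. The shares of genes that held a peak were not adjusted for gene length. Among bone transcription factors, 14 of 24 genes with room held a peak (1.13 per 100 kb). RUNX1 and RUNX2 led, followed by GLI2, an effector of hedgehog signalling, with 10 peaks and 3 cores, and TCF7L2, a factor of Wnt signalling, with 6 peaks and 2 cores. Among bone matrix and mineral genes, 9 of 26 held a peak (0.958 per 100 kb). COL24A1, a fibrillar collagen, held 6, of which 1 had a core, COL5A2 held 4, of which 3 had one, and FBN1, which encodes fibrillin-1, held 3, all with one. ANKH, a transporter of pyrophosphate, held 2, with scores of 83.57 and 273.09 and no core.

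Most signalling lists stood above all genes in density as well. In the BMP and TGF-beta pathway, 16 of 31 genes held 30 peaks (1.32 per 100 kb), and 23 of the 30 had a core. Summed over all protein-coding genes with room, 2451 of 4816 had one. LTBP1, which holds latent TGF-beta in the matrix, had 4 peaks with 4 cores and low scores, from 59.33 to 86.73. SMAD3, which carries the TGF-beta signal to DNA, had 3 peaks, with scores of 177.12, 124.87 and 189.89, and 2 cores. BMP6 and TGFB2, both ligands, had 3 each. In the Wnt pathway, 9 of 28 genes held a peak (0.895 per 100 kb), led by the receptors ROR1 with 6 peaks and 1 core, LRP5 with 4 and 3, and ROR2 with 3 and 1. In the YAP-TEAD pathway, 10 of 26 genes held 24 peaks (1.03 per 100 kb), and 19 of the 24 had a core. WWTR1, which encodes TAZ, had 6 peaks and 5 cores, PTPN14, a phosphatase that restrains YAP, 4 and 4, TEAD1 4 and 2, and STK4, a kinase of the Hippo pathway, 3 and 3. Among receptor tyrosine kinases and ligands, with IGF2R counted here, 13 of 32 held a peak (0.596 per 100 kb), close to all genes. IGF1R, the IGF1 receptor, had 8 peaks and 2 cores.

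Genes of adhesion and the cytoskeleton held many peaks. The actin and muscle cytoskeleton list had the highest density of the 12, with 22 of 29 genes and 83 peaks (1.85 per 100 kb), of which 38 had a core. The median over its genes was 1.43 per 100 kb. Over all protein-coding genes with room it was 0, as it had to be where only 17.8% of the genes held a peak. DST and UTRN, linkers of the cytoskeleton, held 11 each, and MYO10, an unconventional myosin of filopodia, and PALLD, an actin-bundling protein, held 8 each. Among adhesion and integrin genes, 16 of 29 held a peak (0.914 per 100 kb), led by LPP with 9 and TLN2, a talin, with 8.

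Other lists served as a view of other cell types and of general functions. Neuronal genes held a peak in 20 of 38 genes, more often than all genes, but over 38860 eligible kb their density was 0.142 per 100 kb, below all genes. NRXN3, a synaptic adhesion protein, held 7 and CNTN4 held 6. Blood cell genes held a peak in 11 of 34 (0.797 per 100 kb), with RUNX1 again and EBF1, a factor of B cells, at 7. Chromatin regulators had 15 of 36 (1.02 per 100 kb), with ARID1B and HDAC9 at 8 each and JARID2 at 5. Cell cycle and DNA repair genes had 6 of 28 (0.825 per 100 kb), with RAD51B at 9 and CDK14 at 7. The median over the genes of a list was 0.58 per 100 kb for BMP and TGF-beta, 0.489 for bone transcription factors, 0.424 for adhesion, 0.0694 for neuronal genes and 0 for the lists not named here with a median. Every list but that of neuronal genes lay above the 0.551 per 100 kb of all protein-coding genes, so a higher density was not particular to any of them. A core was found in 25 of 58 peaks for bone transcription factors, 13 of 21 for bone matrix and 20 of 42 for adhesion. It was found in 11 of 21 for Wnt, 16 of 37 for receptor tyrosine kinases and 33 of 55 for neuronal genes. For blood cell genes, chromatin regulators and cell cycle genes it was 24 of 45, 21 of 43 and 7 of 23. The lists are given by their counts, with no test, and were chosen with results of these data known.

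**Figure D4:**
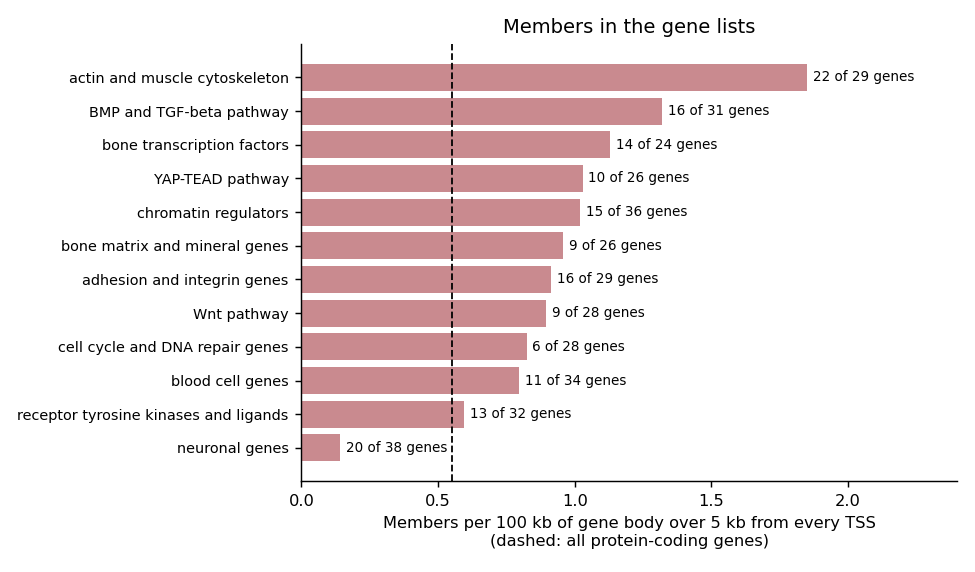
Peaks per 100 kb of eligible gene body (x axis) summed over the genes of each of 12 lists (y axis), with the number of genes that held a peak of those with room beside each bar. The dashed line marks the 0.551 per 100 kb of all protein-coding genes, and the bars run from 0.142 for neuronal genes to 1.85 for the actin and muscle cytoskeleton.

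Host genes often had a CBFB peak at a promoter as well. A CBFB peak lay within 5 kb of a TSS of the gene in 62.1% (60.1 to 64.0) of the 2465 protein-coding host genes and in 36.1% (35.2 to 37) of the 11393 genes with room that held no such peak. Over host genes of every annotated type the share was 54.2% (52.6 to 55.9). Host genes were longer, but the difference was found at each length. With 20 to 50 kb of eligible body the shares were 60.4% and 37.2%, with 50 to 100 kb 67.9% and 36.3%, and with over 300 kb 53.6% and 13.5%. A RUNX2 peak at a promoter was found in 30.3% (28.5 to 32.2) of host genes and in 15.5% (14.8 to 16.2) of the others.

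Most of the peaks lay over 10 kb from a RUNX2 peak. A CBFB peak that overlapped RUNX2, of any score and at any place, lay within 10 kb of 1131 peaks, or 19.0% (18.1 to 20.1). The median distance over all the peaks described here was 48.9 kb. The nearest RUNX2 peak lay within 1 kb in 2.73% and at a median of 45.9 kb. Another of these peaks lay within 10 kb in 20.7% (19.7 to 21.8). Such shares were not computed for eligible bases, so whether the peaks lay nearer or farther than background cannot be read. Joined over gaps of up to 10 kb between midpoints, 1231 peaks fell into 567 runs of 2 or more, and 13 runs held 4 or more. The longest run was 6 peaks over 36.4 kb in the lncRNA gene LNCAROD (chr10:54428007-54464422), with scores from 81.5 to 117, and 6 of the 6 had a core. The next were 5 peaks over 24.5 kb in TIAM2 (chr6:155395779-155420301), with scores from 54.6 to 134, of which 0 had one, and the 5 peaks in TSPAN15.

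The core was more frequent in peaks that stood alone. Distance was taken to the nearest CBFB peak that overlapped RUNX2, of any score and at any place. The core was found in 44.2% (41.3 to 47.2) of the peaks within 10 kb of it, in 49.8% (48.0 to 51.7) of those 10 to 100 kb away and in 57.4% (55.1 to 59.6) of those farther away. The farthest exceeded the nearest by 13.1 points (9.50 to 16.7), and did so on 20 of 23 chromosomes. Peaks nearer to such a peak were also wider, with medians of 1096, 1061 and 984 bp. Their windows were richer in GC, with means of 46.6%, 45.7% and 44.1%, and the part of GC content in this order was not tested. Without the widest of the 5 width groups, the shares were 50.8%, 54.8% and 61.1%. AP-1 showed no such order, at 14.1%, 14.5% and 13.7%. A like order was found by the number of these peaks in the same window of 1 Mb, from 56.1% (53.4 to 58.8) with 1 or 2 to 45.0% (41.2 to 48.8) with 10 or more, a difference of 11.1 points (6.51 to 15.6). Without the widest group, these shares were 59.5% and 52.3%. The mean GC content was 45.5% with 1 or 2 and 44.9% with 10 or more. The divisions by distance, density and width were chosen after seeing the data.

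**Figure D5:**
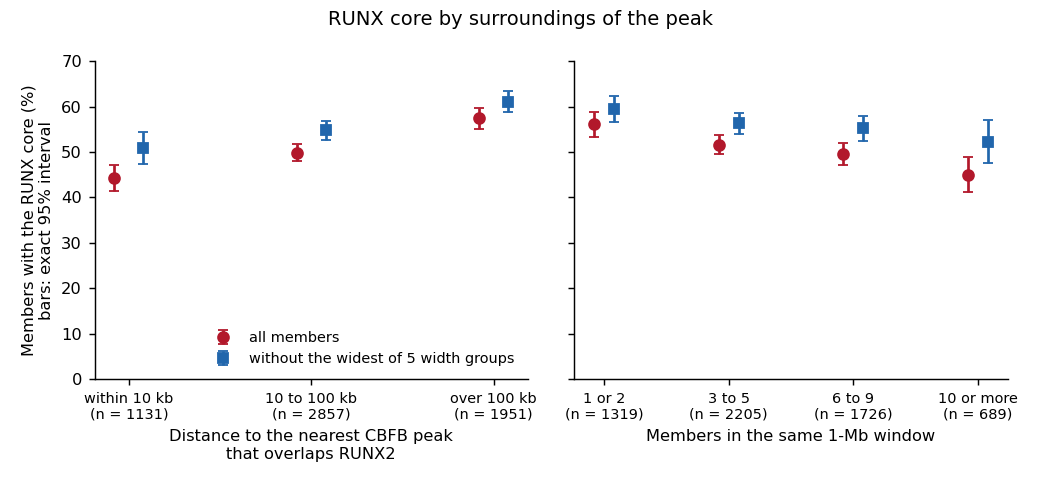
Share of peaks with a RUNX core (y axis, percent, with exact 95% intervals) by the distance to the nearest CBFB peak that overlaps RUNX2 (left) and by the number of these peaks in the same window of 1 Mb (right), for all peaks (red) and without the widest of the 5 width groups (blue). The red points rise from 44.2% to 57.4% on the left and fall from 56.1% to 45.0% on the right.

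The chromosomes differed in density and in the share with a core. The density was highest on chromosome 17, at 0.820 peaks per 100 kb of eligible body, on chromosome 6 at 0.799, on chromosome 22 at 0.727 and on chromosome 1 at 0.701. It was lowest on chromosome X at 0.228 and chromosome 18 at 0.233. The shared peaks of all scores in gene bodies followed the same order closely, with a Pearson correlation of 0.843 and a rank correlation of 0.795 over 23 chromosomes, which share the library and differ in length and gene content. The share with a core ran from 40.9% (29.0 to 53.7) on chromosome 19 to 60.3% (52.8 to 67.6) on chromosome 14. It was lower where the density was higher, with a Pearson correlation of -0.502 and a rank correlation of -0.534 over the same 23 chromosomes, as a description with no test. Without chromosomes 1, 6 and 17, the share was still 56.8% with 1 or 2 peaks in the window of 1 Mb and 45.2% with 10 or more.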

How the data were processed

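ChIP-seq peak lists of RUNX2 and CBFB in SAOS2 cells were analysed, with 1 library per antibody, grouped by the sample descriptions. The deposited score is a value of the authors' peak caller. Its formula is not given in the sources used here, and it was read as the MACS peak score, which rises with the significance of a peak and with depth, so it was read only within a list. As tools and build, the submitters' processing notes name CASAVA 1.8.2, MACS 1.4.1 and hg19. The aligner, the calling limit, the depth and any use of the input as control are not given in the sources used here. Peaks were called on each library.

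Peaks were classified with GENCODE release 44 mapped to GRCh37 (63827 genes on chromosomes 1 to 22 and X). Motifs were searched on both strands within 100 bp of each midpoint, in flanks 2 kb away and in tiles. Gene density used bases in genes over 5 kb from every TSS. No tests were run across peaks. The overlap of intervals, the gap between them and the motif search were tested on simulated data. The TSS distance and the placement in genes were not. The alternatives covered the score limit, the gap to RUNX2, the TSS distance, the gene classes, the motif, the window, the flanks, 1 chromosome and the distance to a shared peak.

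Named genes were the 5 peaks of the highest score, the 8 genes with the most peaks, the 8 protein-coding genes with the most peaks per 100 kb among those with at least 5, the 5 highest-scoring peaks with the longer motif within 25 bp of the midpoint, the 5 with the most copies of the core, the 5 highest-scoring in a coding exon, and up to 4 genes of each list with the most peaks. LNCAROD, CLIC5 and SUPT3H were named after their values were seen. The members and the 13 lists (443 genes) were chosen with earlier results of these data known. The results of 1 named gene and 1 list are not reported here. Python 3.11.15 was used with numpy 2.4.6, pandas 2.3.3, scipy 1.17.1, pysam 0.24.0 and matplotlib 3.10.9.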

Additional observations from a re-analysis of the deposited data

How the results depend on the processing

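Of 90 recomputed values, 57 stayed within their limits, 29 moved, 3 lost and 1 gained an interval without 0, and no called difference changed direction. The core share and its differences between classes do not use the flanks. Their values with flanks 5 kb away were therefore fixed in advance, though they count among the 57. Requiring a score of at least 100 left 2352 peaks and gave differences to the peaks near a TSS of 21.3 points, a share of genes of 7.69%, a share near a shared peak of 20.7% and a share of host genes (all annotated genes) with a promoter peak of 58.6%. The core share was 28.1% within 50 bp, 71.8% within 200 bp and 29.5% for TGTGGTT, the ratio to the flanks 4.04, 2.81 and 7.91, and the difference to the peaks near a TSS 9.91, 23.3 and 12.1 points. With CBFB peaks within 1 kb of a RUNX2 peak moved to the shared class, the difference to that class was 2.99 points (0.291 to 5.69). The share near a shared peak, in that wider sense, was 16.9%. The difference to the peaks outside genes was 1.05 points for TGTGGTT, 2.11 with a score limit of 200 and 2.12 without the chromosome with the most peaks. A TSS distance of 10 kb gave 16.7 points to the peaks near a TSS, 3.11% in exons, 28.4% in first introns, 15.9% of genes and 18.0% near a shared peak. Protein-coding genes alone gave 22 points, 18.9% of genes and 61.3% with a promoter peak. Any overlap with an exon was found in 10.2%, a shared peak within 25 kb in 34.6%, and a score limit of 200 gave 14.2% of genes. A window centred 60 bp below the midpoint, chosen after seeing the data, gave 56.5%, a ratio of 4.10 and 20.5 points, and its difference to the shared peaks was -0.503 points (-3.26 to 2.29). The cause of these changes was not tested. The alternative without repeats was not run because the genome given carries no soft-masked bases. No paired analysis was possible because there was 1 library for RUNX2 and 1 for CBFB. Without counts or a replicate, neither depth nor the spread between libraries can be judged, and a peak under the calling limit for RUNX2 is not shown to be unbound.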
